A study of Mus musculus with 5 samples.

Results

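Single hepatocytes that carried much mitochondrial mRNA were compared with hepatocytes of the same mouse that carried little. In each mouse the cells were ranked by the share of their UMIs (unique molecular identifiers, each standing for 1 captured RNA molecule) that came from the mRNAs of the mitochondrial genome, and the 1 in 3 cells with the highest share (mt-high cells) were set against the 1 in 3 with the lowest (mt-low cells). The cells were thus chosen by their measured share of mitochondrial mRNA, which gave 149 mt-high and 149 mt-low cells, of 449 cells ranked and 454 cells in the series. HFD mouse 2 gave 69 cells to each group, HFD mouse 3 gave 8, LFD mouse 1 gave 44 and LFD mouse 2 gave 28. The 5 cells of HFD mouse 1 were not ranked. All mice were male C57BL/6J littermates, taken into the study at 8 weeks of age and then given a high fat diet (HFD) or a regular diet (LFD) for 12 weeks. They carried no named genetic change, and the libraries were made by Drop-seq, a droplet method for single cells. No cell barcode was shared between libraries (0). Values of the 4 mice are given in the order HFD mouse 2, HFD mouse 3, LFD mouse 1 and LFD mouse 2.

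The mitochondrial genome encodes core subunits of the respiratory chain and of ATP synthase, and the RNAs of the mitochondrial ribosome. All other proteins of the organelle are encoded in the nucleus, made in the cytosol and imported, so each respiratory complex except complex II draws on both genomes. Liver lobules are divided along the blood flow. Periportal hepatocytes receive oxygen-rich blood and are known for urea synthesis, gluconeogenesis and the secretion of plasma proteins, and pericentral hepatocytes for cytochrome P450 enzymes and glutamine synthesis. A high mitochondrial share of a single-cell library is also widely used as a mark of damaged cells.

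Of the 13 protein-coding genes of the mitochondrial genome, 12 were listed in the table (mt-Nd4l is not analysed here) and 7 had 50 or more UMIs in the 4 mice. These were mt-Cytb (cytochrome b of complex III, 8604 UMIs), the complex I subunits mt-Nd1 (5125), mt-Nd4 (4107), mt-Nd2 (4016), mt-Nd5 (1736) and mt-Nd6 (52), and mt-Co1 of complex IV (1615). Together the listed mRNAs held 25264 UMIs, of which mt-Cytb made up 34.1%. The other 5 listed mRNAs had under 5 UMIs each: mt-Nd3 had 4, mt-Co2 3, mt-Atp6 2, and mt-Co3 and mt-Atp8 0. The share that ranked the cells was therefore a share of complex I, mt-Cytb and mt-Co1 mRNA, and gave almost no weight to mt-Co2, mt-Co3 and the ATP synthase subunits.

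Stretches near the 3′ end, where Drop-seq captures RNA, are shown for 2 mRNAs with many UMIs and for 2 with almost none, because the second pair also occurs letter for letter in the nuclear genome. Each is 60 bases and ends 10 bases before the end of the GENCODE transcript (build GRCm38, plus strand of chromosome M); all letters of mt-Co2 and mt-Co3 are matched.
mt-Cytb, chrM:15219-15278: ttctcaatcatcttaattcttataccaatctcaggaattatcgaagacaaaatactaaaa
mt-Nd1, chrM:3638-3697: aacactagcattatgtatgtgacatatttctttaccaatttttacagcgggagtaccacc
mt-Co2, chrM:7627-7686: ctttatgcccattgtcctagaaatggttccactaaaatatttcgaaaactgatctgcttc
mt-Co3, chrM:9321-9380: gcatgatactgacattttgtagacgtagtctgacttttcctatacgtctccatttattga
The mt-Co2 stretch lay unchanged in the nuclear pseudogene Gm28661 (chr1:24614892-24614951, minus strand) and the mt-Co3 stretch in Gm28437 (chr1:24613198-24613257, minus strand). Neither the mt-Cytb nor the mt-Nd1 stretch was found in a nuclear gene model. Over whole transcripts, the share of 50-base stretches that also occur in a nuclear gene model was 100% for mt-Co2, 99.9% for mt-Co3, 99.5% for mt-Atp6 and 97.99% for mt-Nd3. It was 62.2% for mt-Nd4, 51.1% for mt-Co1, 8.19% for mt-Nd2, 7.61% for mt-Nd5, and 0% for mt-Cytb, mt-Nd1 and mt-Nd6. The mRNAs with the fewest UMIs were thus those copied almost whole into the nuclear genome, with mt-Atp8 as the exception (0 UMIs and 0% copied). The sources used here do not say how reads that match several places were counted, and its part in these low counts was not tested.

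**Figure D1:**
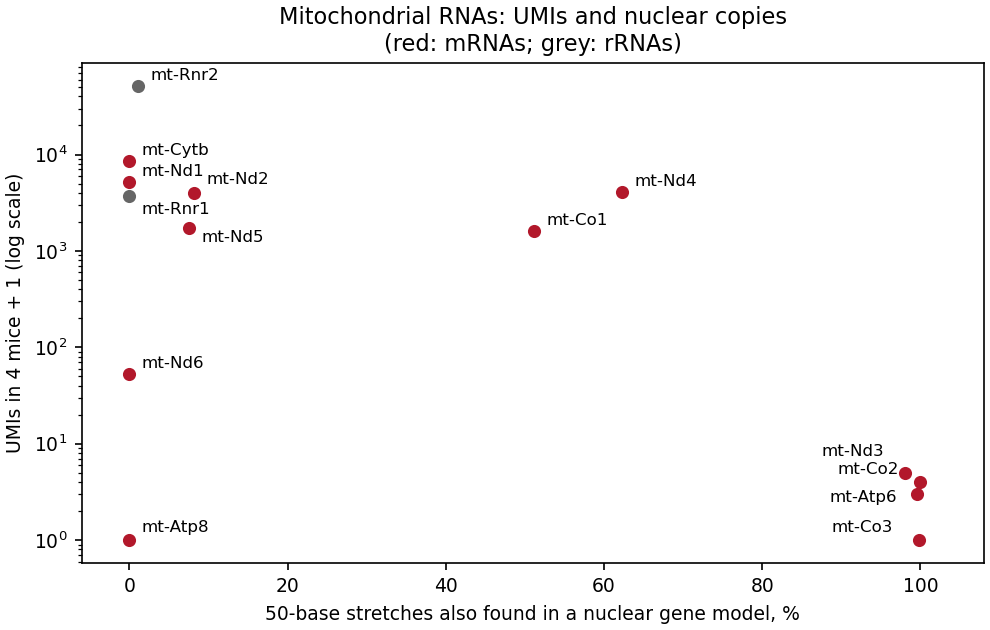
UMIs of each listed mitochondrial RNA in the 4 mice (vertical axis, UMIs plus 1, log scale) against the percentage of its 50-base stretches that also occur in a nuclear gene model (horizontal axis). The 4 mRNAs at the right, copied almost whole (97.99% to 100%), have 0 to 4 UMIs, while mt-Cytb with none copied has 8604.

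Mitochondrial mRNA made up 1.56, 2.18, 1.84 and 1.78% of all UMIs of the 4 mice. The spread between cells of 1 mouse was much wider than counting error, with a variance 12.6, 19.8, 9.44 and 5.91 times the counting variance. The median mt-high cell had a share of 2.28, 4.001, 2.47 and 2.35%, against 0.836, 1.11, 1.16 and 1.12% for the median mt-low cell. These values chose the cells and are a description. The lowest share among mt-high cells was 1.80, 3.31, 1.99 and 1.91%, and the highest share just below, in the middle cells, was 1.74, 3.03, 1.99 and 1.90%. At the other boundary the highest share among mt-low cells was 1.11, 1.39, 1.47 and 1.62%, and the lowest in the middle cells was 1.11, 1.39, 1.48 and 1.62%. The shares ran on without a gap at both boundaries in the LFD mice and at the lower boundary in the HFD mice. At the upper boundary there was a step in HFD mouse 2 (1.74 to 1.80%) and in HFD mouse 3 (3.03 to 3.31%). The groups are ranges of a continuous measure and not cell types. The 8 mt-high cells of HFD mouse 3 lay above 3.31%, higher than the median of mt-high cells of any other mouse.

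**Figure D2:**
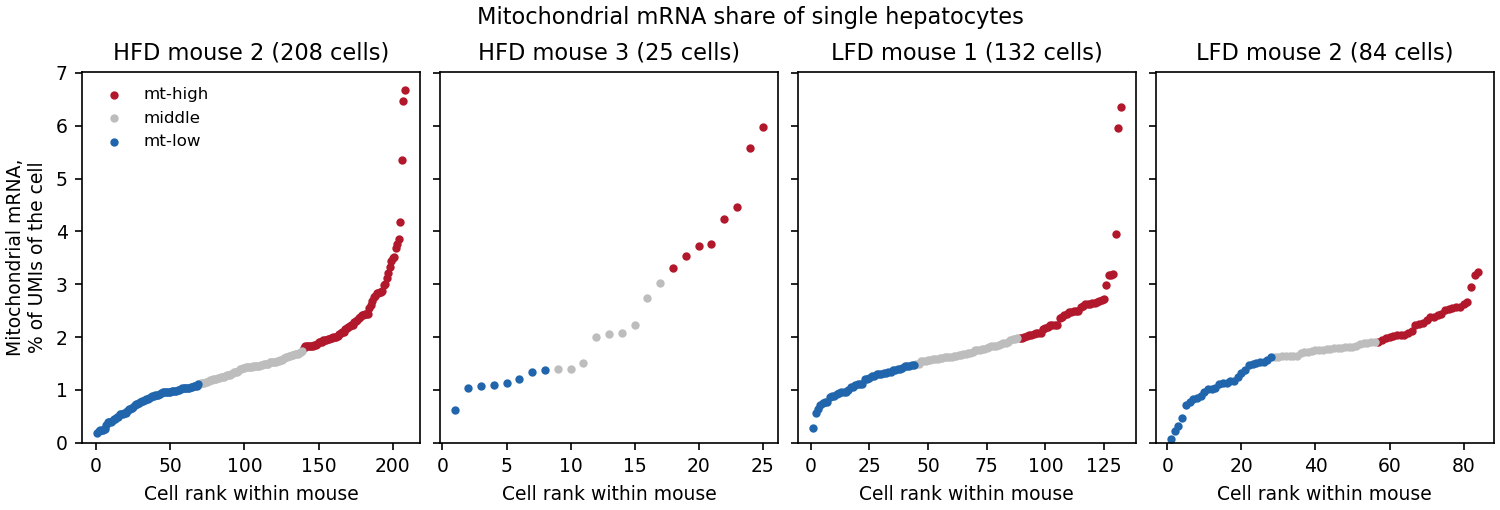
Mitochondrial mRNA as a percentage of the UMIs of each cell (vertical axis) by the rank of the cell within its mouse (horizontal axis), coloured by group. The shares rise steadily in each mouse, and the highest cells reach 6.68% in HFD mouse 2 and 6.36% in LFD mouse 1.

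All 7 mRNAs with 50 or more UMIs shared the pattern. mt-Cytb stood at 8608, 16774, 8353 and 8849 CPM (here UMIs per 1000000 UMIs of all genes) in mt-high cells, against 2105, 3481, 3582 and 3406 CPM in mt-low cells. To take each mRNA out of its own ranking, cells were also ranked by the other mRNAs only. So ranked, mt-Cytb was 1.87 to 4.34 times as high in mt-high as in mt-low cells over the 4 mice, mt-Nd1 1.58 to 2.85 times, mt-Nd4 1.60 to 2.89 times and mt-Co1 1.78 to 4.54 times. Each of the 7 was higher in 4 of 4 mice, although mt-Nd6, the only one from the light-strand transcript, rested on 1 to 17 UMIs per group and mouse and reached only 1.06 times in LFD mouse 1. By part of all mitochondrial mRNA, mt-Cytb held 35.4, 38.6, 33.4 and 37.9% in mt-high cells and 30.8, 30.8, 30.8 and 32.6% in mt-low cells, a higher part in the mt-high cells of each mouse. mt-Nd1 held 19.4, 19.7, 18.03 and 18.5% in mt-high cells and 26.1, 26.6, 19.5 and 22.7% in mt-low cells, a lower part in the mt-high cells of each mouse. The ranking used these counts, so the parts are a description. The mitochondrial ribosomal RNAs, which did not enter the ranking, showed no common direction. mt-Rnr2, the large ribosomal RNA (51306 UMIs), stood at 34827, 36551, 40790.5 and 30323 CPM in mt-high cells and 42246, 31995, 31600.4 and 33185 CPM in mt-low cells. mt-Rnr1, the small one (3734 UMIs), stood at 2568, 5860, 2736 and 2411 CPM in mt-high cells. In mt-low cells it stood at 2939, 2050, 1862 and 1876 CPM, so it was higher in mt-high cells of 3 of 4 mice. The summed ribosomal RNAs differed by −0.25, 0.36, 0.40 and −0.08 (log2 ratio, high over low; mean 0.11 ± 0.32, SD, n = 4 mice; two-sided exact sign-flip permutation p = 0.5, adjusted 0.643 over 9 such measures). With 4 mice this test cannot go below 0.13.

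Depth and cell quality moved with the groups in part. The median mt-high cell held 2345, 1630.5, 2934 and 3442 UMIs, against 1788, 2598, 2269 and 2585 UMIs in mt-low cells, so mt-high cells were deeper in 3 of 4 mice and shallower in HFD mouse 3 (sign-flip permutation p = 0.625). They also held more genes in the same 3 mice before thinning, with a median of 865, 664, 1060 and 1149 genes in mt-high cells and 757, 985, 909.5 and 1049.5 in mt-low cells. After each cell was thinned to 1727 UMIs, which left out 112 shallower cells, mt-high cells had fewer genes in all 4 mice, with 687, 694, 713 and 705 genes in mt-high cells and 729, 756, 756 and 809 in mt-low cells. There were 50, 3, 41 and 25 mt-high and 37, 6, 35 and 21 mt-low cells left for this. The 1727 UMIs included those of mitochondrial mRNA, while only genes not encoded in the mitochondria were counted. The ranking by mRNA thus left mt-high cells fewer of the 1727 UMIs for the genes counted, and its part in the difference was not tested. Of 25 hepatocyte markers, 24 were found in over 50% of the cells. The 8 T or NK cell markers were at 0 in both groups, and the summed macrophage markers ranged over 0 to 27.02 CPM in mt-high cells and 0 to 99.2 CPM in mt-low cells. Sinusoidal endothelial markers ranged over 0 to 76.02 CPM in mt-high and 49.95 to 129 CPM in mt-low cells, and erythroid markers 0 to 160.3 CPM in mt-high and 0 to 699 CPM in mt-low cells. Stellate markers reached at most 160.3 CPM in mt-high and 27.8 CPM in mt-low cells, cholangiocyte markers 81.05 CPM in mt-high and 22.3 CPM in mt-low cells, and cycling markers 6.75 CPM in mt-high and 103 CPM in mt-low cells. B cell and neutrophil markers came to at most 1 UMI per group over the 4 mice. When the 11 cells with 3 or more UMIs of another cell type were left out, 84 of 1348 genes were called in the comparison that follows. With these cells 85 were called, and 75 genes were called both ways.

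For the comparison across genes, UMIs were summed per mouse and group, all mitochondrially encoded RNAs were left out, and the other genes were scaled to the remaining total (CPM from here on). The 8 sums held 12478 to 210475 such UMIs, and a gene with no UMI could be as high as 240.4 CPM in the mt-high cells of HFD mouse 3, but only 14.3 CPM in those of HFD mouse 2. Of 1425 genes tested (limma voom, taking the difference within each mouse), 85 (5.96%) passed an adjusted p under 0.05, of which 28 (1.96%) were higher and 57 (4.0%) were lower in mt-high cells. Pericentral enzymes led the lower genes, and periportal enzymes and plasma proteins led the higher ones. Of the 28 higher genes 23 were higher in all 4 mice, and of the 57 lower genes 47 were lower in all 4. In 8 of the higher genes the mt-high values of the 4 mice all lay above their mt-low values, which held for 1.75% of all genes tested, and in 25 of the lower genes they all lay below, which held for 4.21%. Of these 25 genes 5 had 0 UMIs in the mt-high cells of HFD mouse 3, and 20 were without overlap when each 0 was set to the level of 3 UMIs. The middle cells, which were not in the fit, lay between the other groups for 80 of the 85 genes (means over mice). The 85 genes were called for their difference between the other groups. That choice favours this order and the same sign in all 4 mice, and neither share over all genes tested is given. The count of called genes depended on single mice: it was 25 with HFD mouse 2 left out, 72 with LFD mouse 1 left out, 24 with LFD mouse 2 left out, and 150 with HFD mouse 3 left out, the mouse with the fewest cells and the only one whose raw-read label has another form. No called gene that could be tested changed sign in any of these 4 fits.

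Genes of the pericentral zone were lower in mt-high cells. Of 35 genes on this list 34 were listed and 21 were tested, of which 19 were called lower and 0 higher, with a median log2 difference of −1.22, against −0.11 over all genes tested. The share called lower over all genes tested was 4.0%. A gene could pass the filter through its mt-low values alone, so the tested members do not stand for the whole list. Cyp2e1, the ethanol-oxidising cytochrome P450 (chr7:140763739-140774987, GRCm38), had 831, 962, 851 and 439.5 CPM in mt-high cells, against 2355, 1599, 2793 and 3103 CPM in mt-low cells (log2 difference −1.84, SE 0.19, adjusted p = 8.30e-10). The lowest value in mt-low cells lay above the highest in mt-high cells. Cyp2a5, which hydroxylates coumarin in the mouse (chr7:26835305-26843548), had 4.75, 0, 33.8 and 18.3 CPM in mt-high cells, against 122, 549.5, 281 and 556 CPM in mt-low cells (log2 difference −3.87, SE 0.42, adjusted p = 2.02e-09). It was close to absent from mt-high cells, with 1, 0, 5 and 2 UMIs, against 22, 11, 34 and 43 UMIs in mt-low cells. Cyp2a5 passed the filter through its mt-low values alone, so that it was tested rested on the difference itself. Rgn, which encodes regucalcin (chrX:20549787-20562089), had 333, 401, 338 and 156 CPM in mt-high cells, against 1175, 799, 1116 and 1513 CPM in mt-low cells (log2 difference −2.06, SE 0.22, adjusted p = 2.27e-09), and its groups did not overlap either. Cyp1a2, the caffeine-metabolising P450, had 57.01, 0, 196 and 82.4 CPM in mt-high cells, against 362, 99.9, 562 and 711 CPM in mt-low cells (log2 difference −2.21, SE 0.29, adjusted p = 3.02e-07). It was lower in HFD mouse 2 and both LFD mice. HFD mouse 3 had only 0 UMIs in its mt-high cells and 2 in its mt-low cells, too few to show a difference.

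Other pericentral enzymes went the same way. Cyp2c29, a P450 of drug and fatty acid oxidation, had 233, 160.3, 696 and 293 CPM in mt-high cells, against 907, 549.5, 1834 and 2056 CPM in mt-low cells (log2 difference −1.96, SE 0.21, adjusted p = 1.48e-09). Gstm1, a glutathione S-transferase, had 669.9, 481, 973 and 824 CPM in mt-high cells, against 1280.4, 1249, 2115 and 2431 CPM in mt-low cells (log2 difference −1.20, SE 0.17, adjusted p = 1.49e-06), without overlap. Aldh1a1, which oxidises retinal, had 675, 721, 365 and 449 CPM in mt-high cells, against 1553, 1099, 917 and 1086 CPM in mt-low cells (log2 difference −1.20, SE 0.18, adjusted p = 5.51e-06), again without overlap. Oat, the mitochondrial ornithine aminotransferase, is encoded in the nucleus. It had 52.3, 160.3, 229.6 and 36.6 CPM in mt-high cells, against 585, 99.9, 678 and 828 CPM in mt-low cells (log2 difference −2.48, SE 0.34, adjusted p = 7.16e-07). The difference was present in 3 mice, while HFD mouse 3 had only 2 UMIs in its mt-high cells and 2 in its mt-low cells. Other called members included Aldh3a2, Lect2, Cyp2c37, Cyp2c50, Cyp4a14, Csad, Pon1, Gsta3, Ces1d and Akr1c6, between −1.95 and −0.66. Of these Cyp2c37 passed the filter through its mt-low values alone. The sterol hydroxylase Cyp27a1 (−0.44, adjusted p = 0.409) and the glutathione transferase Mgst1 (−0.24, adjusted p = 0.265) did not pass. Cyp2a5, the Cyp2c genes and Gstm1 have close paralogs, and the part of reads shared with them is not known.

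Many periportal genes were higher in mt-high cells. Of 34 genes on this list, all listed, 26 were tested, 11 were called higher and 0 lower, with a median log2 difference of 0.53. The share called higher over all genes tested was 1.96%. Sds, serine dehydratase, which feeds serine into gluconeogenesis (chr5:120476526-120483932), had 299, 1443, 723 and 879 CPM in mt-high cells, against 111, 549.5, 273 and 194 CPM in mt-low cells (log2 difference 1.58, SE 0.24, adjusted p = 4.35e-06). It was higher in mt-high cells of each mouse, but the mt-low cells of HFD mouse 3 lay above the mt-high cells of HFD mouse 2. Cyp2f2, a P450 of the periportal zone (chr7:27119909-27133660), had 931, 1042, 1702 and 2106 CPM in mt-high cells, against 445, 349.7, 1016 and 866 CPM in mt-low cells (log2 difference 1.04, SE 0.18, adjusted p = 3.97e-05). In each mouse the mt-high cells lay above the mt-low cells. Hal, the first enzyme of histidine breakdown, had 404, 721, 675 and 559 CPM in mt-high cells, against 217, 499.6, 372 and 297 CPM in mt-low cells (log2 difference 0.84, SE 0.21, adjusted p = 0.00732), with the same order within each mouse. Hsd17b13, a lipid droplet protein, had 703, 962, 547 and 577 CPM in mt-high cells, against 251, 799, 388 and 219.8 CPM in mt-low cells (log2 difference 1.00, SE 0.22, adjusted p = 0.0017), and the difference was small in HFD mouse 3.

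Some enzymes of gluconeogenesis and nitrogen disposal were among them. Pck1, the enzyme that commits oxaloacetate to gluconeogenesis, had 1193, 1683, 1486 and 1859 CPM in mt-high cells, against 746, 999, 1083 and 1254 CPM in mt-low cells (log2 difference 0.58, SE 0.16, adjusted p = 0.0197). Fbp1, fructose bisphosphatase, had 2471, 2324, 1844 and 2106 CPM in mt-high cells, against 1536, 2248, 1347 and 1241 CPM in mt-low cells (log2 difference 0.56, SE 0.16, adjusted p = 0.0197). Cps1, the mitochondrial entry enzyme of the urea cycle, had 1478, 2244, 1817 and 2271 CPM in mt-high cells, against 768, 999, 1702 and 1746 CPM in mt-low cells (log2 difference 0.53, SE 0.17, adjusted p = 0.0442). All were higher in 4 of 4 mice, with overlap between the groups. The shares over all genes tested were 1.96% called higher and 4.0% called lower. Of 15 genes of gluconeogenesis, glycolysis and glycogen tested, 2 were called higher, Pck1 and Fbp1, and 1 lower (median 0.18). The lower one was Gpd1, the cytosolic glycerol-3-phosphate dehydrogenase, with 114, 0, 128 and 91.6 CPM in mt-high cells, against 256, 399.6, 198 and 103 CPM in mt-low cells (log2 difference −1.02, SE 0.32, adjusted p = 0.0482), lower in 4 of 4 mice with overlap. The other urea cycle genes of the list did not pass, with Ass1 at 0.52, adjusted p = 0.0603, Arg1 at 0.51, adjusted p = 0.0502 and Asl at 0.41, adjusted p = 0.546. Nor did the glutaminase Gls2 (0.76, adjusted p = 0.0775) or G6pc, the glucose-6-phosphatase (0.60, adjusted p = 0.164). Uox, Hsd17b6 and Serpina1e were called higher, but in 3 of 4 mice only, HFD mouse 3 being the exception for each. The histidine pathway gene Amdhd1, which was on no list, was higher without overlap (log2 difference 0.83, SE 0.23, adjusted p = 0.0197).

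**Figure D3:**
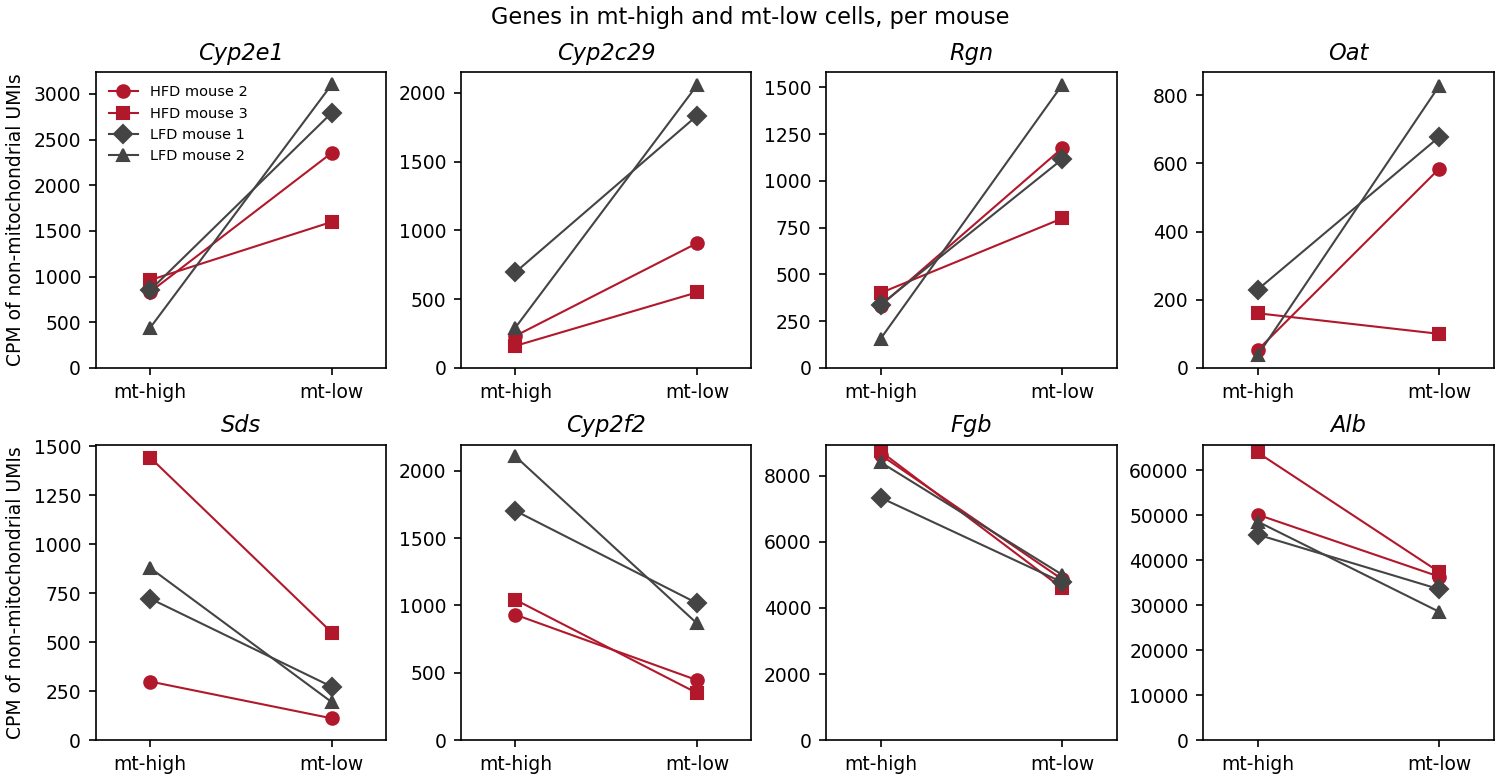
CPM of non-mitochondrial UMIs (vertical axis, linear, from 0) of 4 genes lower and 4 genes higher in mt-high cells, with 1 line per mouse joining its mt-high cells (left) and its mt-low cells (right). Lines fall to the left for Cyp2e1, Cyp2c29 and Rgn in all 4 mice and for Oat in 3, and stand higher at the left for Sds, Cyp2f2, Fgb and Alb in all 4.

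Several abundant secreted proteins were higher in mt-high cells. The first of them, Alb, is also a member of the periportal list. Alb, serum albumin (chr5:90460897-90476602), had 50134, 63953, 45696 and 48595 CPM in mt-high cells, against 36346, 37366, 33549.8 and 28525 CPM in mt-low cells (log2 difference 0.59, SE 0.10, adjusted p = 3.63e-05). Fgb and Fgg, chains of the clotting protein fibrinogen, separated the groups in all 4 mice. Fgb (chr3:83040141-83049863) had 8628, 8735, 7335 and 8406 CPM in mt-high cells, against 4865, 4596, 4776 and 5004 CPM in mt-low cells (log2 difference 0.76, SE 0.12, adjusted p = 1.88e-05). The 4 values in mt-low cells lay within 4596 to 5004 CPM and the 4 values in mt-high cells within 7335 to 8735 CPM. Fgg had 3739, 3366, 3249 and 3782 CPM in mt-high cells, against 2109.8, 1349, 2471 and 2108 CPM in mt-low cells (log2 difference 0.75, SE 0.15, adjusted p = 4.59e-04), also without overlap. Trf, the plasma iron carrier transferrin, had 8267, 19234, 8726 and 10182 CPM in mt-high cells, against 6652, 6494, 6718 and 6491 CPM in mt-low cells (log2 difference 0.62, SE 0.14, adjusted p = 0.00156), and its largest difference was in HFD mouse 3. Kng1 (kininogen; 0.55, adjusted p = 0.0102) and Serpina1d (an alpha-1-antitrypsin; 0.70, adjusted p = 0.00107) were also higher without overlap, and Hpx, the haem carrier hemopexin (0.64, adjusted p = 0.00589), was higher in 4 of 4 mice with overlap. The Serpina1 genes are near-identical copies, so reads may be split among them.

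Over all genes tested 1.96% were called higher and 4.0% lower. The small counts in the lists that follow were not tested against these shares. Of 34 complement and coagulation genes tested 3 were called higher and 0 lower (median 0.20), Fgb, Fgg and Kng1. Of 18 acute phase genes and protease inhibitors 2 were higher, Serpina1d and Serpina1e, and 0 lower (median 0.22). Of 22 plasma carriers and apolipoproteins 3 were higher, Alb, Trf and Hpx, and 1 lower (median 0.15). The lower one was Apoc1, a small apolipoprotein, with 25969.8, 20837, 22977 and 21766 CPM in mt-high cells, against 32538, 38066, 26922 and 27827 CPM in mt-low cells (log2 difference −0.39, SE 0.11, adjusted p = 0.0149); here all 4 values in mt-high cells lay under all 4 in mt-low cells. Complement component 5 (Hc; 0.65, adjusted p = 0.0451) was higher and stood on no list. Of 24 genes of protein folding and export in the endoplasmic reticulum 1 was called, the chaperone Hspa5 (0.60, adjusted p = 0.0388). Of the 24 genes 19 lay above 0 (median 0.17), where 559 of all 1425 genes tested did.

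Major urinary proteins, pheromone carriers secreted by the male mouse liver, divided, where 1.96% of all genes tested were called higher and 4.0% lower. Of 14 tested, 2 were called higher, Mup20 (0.87, adjusted p = 4.70e-06) and Mup3 (0.56, adjusted p = 1.67e-04), and 3 lower, Mup17 (−1.81, adjusted p = 2.84e-10), Mup9 (−1.71, adjusted p = 1.34e-05) and Mup18 (−1.17, adjusted p = 0.00132). Mup3 had 52785, 15948, 39759.8 and 40153 CPM in mt-high cells, against 32594, 14287, 28327 and 24918 CPM in mt-low cells, and Mup17 had 637, 80.1, 1472 and 1465 CPM in mt-high cells, against 1854, 149.9, 4008 and 8289 CPM in mt-low cells. Mup3 was higher in 4 of 4 mice, and Mup20 in 3 only. Mup17 was lower in HFD mouse 2 and both LFD mice. HFD mouse 3 had only 1 UMI of Mup17 in its mt-high cells and 3 in its mt-low cells, too few to show a difference. HFD mouse 3 had lower levels of these genes than the other mice, with 0 UMIs of Mup9 and Mup18 in both groups. Most members of this cluster are near-identical, and the handling of reads shared between them is not known, so the split between members is uncertain.

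Among the nuclear partners of the mitochondrial mRNAs 1 gene passed the test, and it was lower. Over all genes tested 5.96% were called. Of 72 nuclear-encoded subunits of the 5 complexes tested, 0 were called higher and 1 lower, with 33 above 0 and 39 below and a median of −0.053, against −0.11 over all genes tested. The 79 listed genes summed to 40622, 34781, 42097 and 38715 CPM in mt-high cells, against 43176, 43661, 43169 and 39348 CPM in mt-low cells, log2 ratios of −0.088, −0.33, −0.036 and −0.023. Complex I, to which 5 of the 7 counted mitochondrial mRNAs belong, had 34 nuclear subunits tested and none called at an adjusted p under 0.05 (0 higher, 0 lower, median −0.069). Its members ran between −0.59 for Ndufb7 and 0.44 for Ndufs8. Ndufa4 (0.013, adjusted p = 0.972) and Cox6a1 (0.014, adjusted p = 0.972), abundant subunits, were close to 0. Cox4i1, a core nuclear subunit of complex IV, was at −0.06, adjusted p = 0.884, while its mitochondrially encoded neighbour mt-Co1 was 2.22 to 6.14 times as high in mt-high cells, a value that entered the ranking. The one call was Atp5e, the epsilon subunit of ATP synthase, with 1007, 1122, 1087 and 1062 CPM in mt-high cells, against 1497, 1798, 1694 and 1358 CPM in mt-low cells (log2 difference −0.54, SE 0.16, adjusted p = 0.0314). Its groups did not overlap, but the middle cells did not lie between them. The median of these lists took the other sign with trimmed-mean scaling (0.061), which moved the median of all genes to 0.015.

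In the further lists of nuclear genes of the organelle 0 or 1 genes each were called, except for the urea cycle and amino acid enzymes. These counts were too small to set apart from the 5.96% over all genes. Of 21 mitochondrial urea cycle and amino acid enzymes 1 was called higher, Cps1, and 1 lower, Oat (median −0.098). Among 11 genes of mitochondrial import and folding 0 were called (median −0.18). Of 24 mitochondrial ribosomal proteins 0 were called (median −0.10), and of 10 TCA cycle enzymes 0 (median −0.025). Of 23 genes for transcription and processing of mitochondrial RNA only 3 had enough UMIs, among them the mRNA-stabilising pair Lrpprc (0.022, adjusted p = 0.977) and Slirp (−0.33, adjusted p = 0.532), and 0 were called. Of 21 enzymes of mitochondrial fatty acid oxidation and ketogenesis 1 was called lower, Bdh1, the beta-hydroxybutyrate dehydrogenase (−1.46, adjusted p = 0.0035). Of the 21 genes 16 lay below 0 (median −0.27), where 866 of all 1425 genes tested did. Among 12 carriers and outer membrane proteins 1 was called, the ADP/ATP carrier Slc25a5, with 409, 801, 405 and 687 CPM in mt-high cells, against 217, 399.6, 281 and 427 CPM in mt-low cells (log2 difference 0.73, SE 0.22, adjusted p = 0.0297). It was higher in 4 of 4 mice. Slc25a3, the phosphate carrier, was at −0.29, adjusted p = 0.536 and did not pass. Of genes of mitophagy and mitochondrial dynamics 5 were tested and 0 called, with Sqstm1 at −0.058, adjusted p = 0.944.

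**Figure D4:**
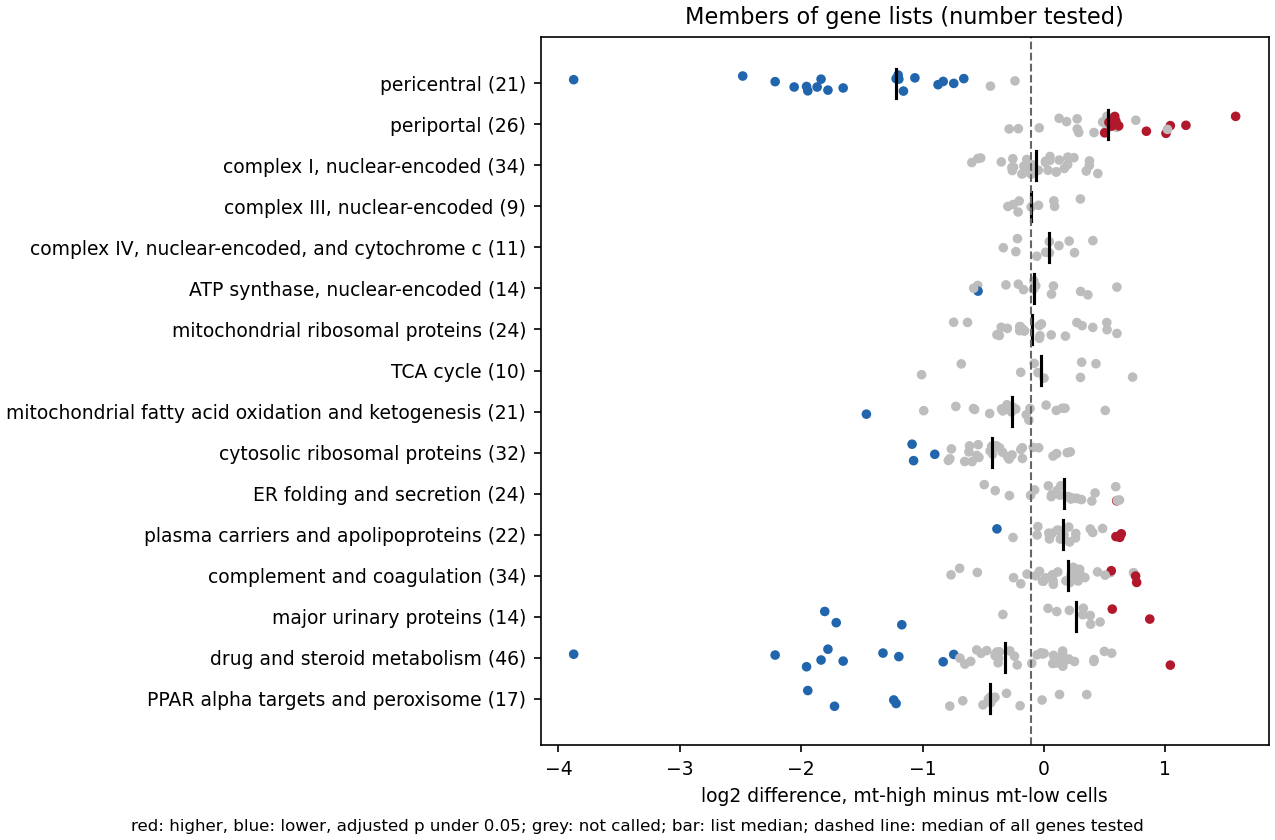
Log2 difference, mt-high minus mt-low cells (horizontal axis), of each tested member of gene lists (rows, number tested in brackets), with list medians as bars and the median of all genes as a dashed line. Pericentral members lie to the left and most periportal members to the right, while nuclear-encoded subunits of complexes I, III, IV and ATP synthase scatter around the dashed line.

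Over all 1425 genes tested 4.0% were called lower, and 866 genes lay below 0. Of 32 cytosolic ribosomal proteins tested 3 were called lower and 0 higher. These were Rps21 (−1.09, adjusted p = 0.0058), Rpl14 (−1.07, adjusted p = 0.0286) and Rplp1 (−0.90, adjusted p = 0.00376), and 28 of the 32 lay below 0 (median −0.43). Their sum over the 80 listed members was 7089, 5129, 9476 and 7481 CPM in mt-high cells, against 8874, 11339.8, 12246 and 9918 CPM in mt-low cells. It was lower in the mt-high cells of each mouse, with log2 ratios of −0.32, −1.14, −0.37 and −0.41 (mean −0.56 ± 0.39, SD, n = 4; exact sign-flip permutation p = 0.13, the smallest possible with 4 mice, adjusted 0.188). The mean was −0.37 with HFD mouse 3 left out. Of 10 translation factors 0 were called (median −0.42), and of 20 proteasome and ubiquitin genes 0 (median −0.28). The nuclear-retained RNA Malat1, which rises in libraries with much nuclear RNA, had 8495, 20756, 6457 and 10677 CPM in mt-high cells, against 6285, 12888, 5991 and 8702 CPM in mt-low cells (log2 difference 0.36, SE 0.12, adjusted p = 0.0678). It was higher in 4 of 4 mice and did not pass the threshold. The part of cell integrity in these differences was not tested.

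Most called genes of drug metabolism and the peroxisome were lower in mt-high cells, where 4.0% of all genes tested were called lower and 1.96% higher. Of 46 genes of drug and steroid metabolism 10 were called lower, all but Ces1g also on the pericentral list, and 1 higher, Cyp2f2 (median −0.32). Of 17 PPAR alpha targets and peroxisomal genes 4 were lower and 0 higher (median −0.44). Acaa1b, a peroxisomal thiolase, had 1378, 2004, 952 and 604 CPM in mt-high cells, against 2889, 4046, 1992 and 2185 CPM in mt-low cells (log2 difference −1.24, SE 0.16, adjusted p = 3.08e-07). It was lower in each mouse. Cyp4a10, a fatty acid omega-hydroxylase, had 66.5, 80.1, 40.5 and 9.16 CPM in mt-high cells, against 217, 99.9, 165 and 103 CPM in mt-low cells (log2 difference −1.73, SE 0.38, adjusted p = 0.00169). In HFD mouse 3 this rested on 1 UMI in mt-high cells and 2 in mt-low cells. Of 11 genes of lipogenesis and lipid droplets 1 was lower and 0 higher (median −0.11), while the lipid droplet gene Hsd17b13, of the periportal list, was higher. The lower one was Fitm1, a protein of lipid droplet formation, with 42.8, 0, 20.3 and 45.8 CPM in mt-high cells, against 206, 149.9, 140.5 and 272 CPM in mt-low cells (log2 difference −2.35, SE 0.38, adjusted p = 1.58e-05). Its mt-high cells in HFD mouse 3 had 0 UMIs, which allows a level above its mt-low values in 3 mice. Fitm1, Cyp4a10 and Ces1g passed the filter through their mt-low values alone, so that they were tested rested on the difference itself. Slco1b2, the sinusoidal bile acid and drug importer, had 1421, 1282, 716 and 723 CPM in mt-high cells, against 2305, 1499, 1785 and 2366 CPM in mt-low cells (log2 difference −1.10, SE 0.18, adjusted p = 1.34e-05). Its groups did not overlap.

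Of the 85 called genes 55 stood on neither lobule list, 17 higher and 38 lower. Among the lower ones were Aldh2, the mitochondrial acetaldehyde dehydrogenase (−1.01, adjusted p = 8.82e-05), Sod1, the cytosolic superoxide dismutase (−0.77, adjusted p = 0.00169), and Stard10, a lipid transfer protein (−0.87, adjusted p = 0.00203), each without overlap. The oxysterol receptor Nr1h3 (−1.17, adjusted p = 0.0397) and Nucks1, a chromatin protein (−1.57, adjusted p = 6.46e-04), were lower too, but had 0 UMIs in the mt-high cells of HFD mouse 3, where up to 240.4 CPM could go unseen, so that overlap could not be judged there. Aldh2 had 561, 721, 581 and 513 CPM in mt-high cells, against 1297, 1399, 959 and 1112 CPM in mt-low cells. Among the higher ones, the aldehyde oxidase Aox3 (0.60, adjusted p = 0.0388) was without overlap, and the arginine transporter Slc7a2 (0.82, adjusted p = 0.0423) was higher in 4 of 4 mice. These genes were named after their values were seen, as examples of the 55.

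Position on the lobule axis was measured per cell as the natural log of pericentral over periportal list UMIs (each plus 1), so that higher scores are more pericentral. Abundant members weigh most in it. Alb, on the periportal list, gave 50134, 63953, 45696 and 48595 CPM of list sums of 72892, 91120, 75933 and 80864 CPM in mt-high cells. Mgst1, on the pericentral list, had a mean of 7470.5 CPM in mt-high and 8814 CPM in mt-low cells. The pericentral sums were 14985, 13063, 16148 and 13003 CPM in mt-high cells. The median score was −1.70, −2.05, −1.66 and −1.89 in mt-high cells and −0.904, −1.24, −0.523 and −0.305 in mt-low cells, lower in the mt-high cells of each mouse (mean difference −1.08 ± 0.37, SD, n = 4; two-sided exact sign-flip permutation p = 0.13, adjusted 0.188 over 9 measures). Seen from the other side, mitochondrial mRNA made up 1.19, 1.59, 1.39 and 1.25% of UMIs in the 1 in 3 most pericentral cells, 1.69, 1.92, 1.92 and 1.87% in the middle cells and 1.86, 3.35, 2.08 and 2.05% in the 1 in 3 most periportal cells. The order of these pooled shares was the same in each mouse. The median share per cell was 1.11, 1.45, 1.38 and 1.17% in the most pericentral cells, 1.67, 1.39, 1.68 and 1.74% in the middle cells and 1.46, 3.53, 1.98 and 1.99% in the most periportal cells. It was higher in the most periportal than in the most pericentral cells of each mouse, but the middle cells were highest in HFD mouse 2 and lowest in HFD mouse 3. Spearman's rho between share and score over the cells of a mouse was −0.27, −0.56, −0.44 and −0.53 (208, 25, 132 and 84 cells), a description, since both come from the UMIs of the same cells.

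**Figure D5:**
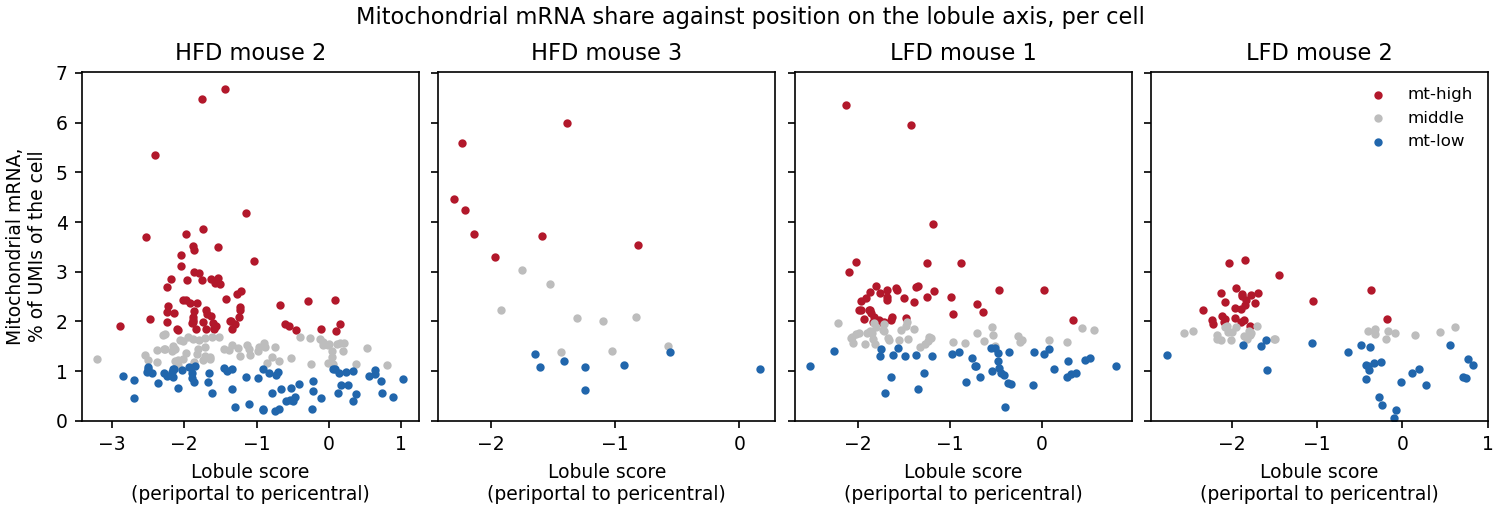
Mitochondrial mRNA as a percentage of the UMIs of each cell (vertical axis) against its lobule score (horizontal axis, natural log ratio, periportal at the left and pericentral at the right), coloured by group. Most mt-high cells lie at the left in each mouse, while mt-low cells reach farther to the right in each mouse.

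Cells were then ranked by mitochondrial mRNA within 3 ranges of the lobule score of each mouse, an alternative added after the data were seen. The ranking again set the share of mitochondrial mRNA, with a median of 2.28, 4.24, 2.48 and 2.37% in mt-high cells and 0.836, 1.09, 1.28 and 1.38% in mt-low cells. Position was matched only in part: the median lobule score was −1.53, −1.59, −1.30 and −1.77 in mt-high cells and −1.34, −1.24, −1.30 and −1.06 in mt-low cells, still lower in the mt-high cells of HFD mouse 2, HFD mouse 3 and LFD mouse 2. Of 1304 genes tested 0 (0.00%) were called by limma voom, and 109 had an unadjusted p under 0.05. The pericentral list median was −0.12 and the periportal 0.12, members that had defined the ranges themselves. Cyp2e1 stood at 0.085, Cyp2a5 at −0.90, Sds at 0.65, Alb at 0.12 and Fgb at 0.48. Of the 83 called genes that could be tested 79 kept their sign. For the called genes on neither lobule list the median was 0.35 among those called higher before and −0.48 among those called lower, against 0.70 and −1.05 without the ranges. Ranking within 3 ranges of UMI total instead, so that mt-high and mt-low cells had like depth, left 63 calls, a pericentral median of −1.29 and a periportal median of 0.43.

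The part that mt-Cytb plays in the ranking was looked at by taking it alone or leaving it out. Ranked by mt-Cytb alone, 103 of 1388 genes (7.42%) were called, 71 of them among the 85, and ranked by the other mRNAs, 75 of 1318 (5.69%), 69 of them among the 85. The pericentral medians were −1.31 and −0.99. Mitochondrial ribosomal RNA gave another picture. Ranked by it alone, 2 of 1377 genes (0.145%) were called, and the pericentral and periportal medians were 0.0064 and −0.017. The called genes were the nuclear RNA Malat1 and the gene model Gm26924. Malat1 had 9233, 18134, 9818 and 12679 CPM in cells high in ribosomal RNA, against 5978, 11690.5, 4864 and 5511 CPM in cells low in it (log2 difference 0.87, SE 0.10, adjusted p = 1.71e-04). Gm26924 had 2455, 1354, 1799.7 and 2835 CPM in cells high in ribosomal RNA, against 843, 603, 876 and 1035 CPM in cells low in it (log2 difference 1.35, SE 0.13, adjusted p = 5.17e-05). Both were higher in 4 of 4 mice. In the ranking by mRNA Gm26924 was lower instead (−0.83, adjusted p = 0.00156), in 3 of 4 mice. The cells high in ribosomal RNA were shallower in 3 of 4 mice, with a median of 1776, 1470, 2273 and 3156 UMIs, against 2333, 2769.5, 3092 and 2761 UMIs in cells low in it.

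Whether the contrast between mt-high and mt-low cells differed with diet was tested as an interaction, with 2 mice per diet. Of 1425 genes 0 (0.00%) were called by limma voom, and 49 had an unadjusted p under 0.05; limma-trend also called 0, with 42. The smallest adjusted p was 0.983. In the mice of 1 diet alone, 30 of 1293 genes were called in HFD mice and 25 of 1523 in LFD mice. The pericentral median was −1.23 in HFD mice and −1.75 in LFD mice, a difference that was not itself tested. The gene of smallest interaction p was Hamp, the iron hormone hepcidin. In HFD mice 2 and 3 it had 1288 and 1523 CPM in mt-high cells, against 1086 and 2298 CPM in mt-low cells. In LFD mice 1 and 2 it had 459 and 119 CPM in mt-high cells, against 1025 and 685 CPM in mt-low cells (interaction on the log2 scale 1.59, SE 0.43, adjusted p = 0.983). The drug-metabolising Cyp3a11 had 33.3 and 160.3 CPM in mt-high cells of HFD mice, against 156 and 1249 CPM in their mt-low cells, and 3465 and 2729 CPM in mt-high cells of LFD mice, against 3801 and 3892 CPM in their mt-low cells (adjusted p = 0.983). The wide error of the interaction leaves room for differences of the size of these estimates.

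Promoters of the genes that moved together were searched for short motifs on both strands, in the window from 250 bases before to 50 bases after the start (RefSeq, GRCm38.p6). Of the called genes 21 of the 28 higher and 44 of the 57 lower had a promoter in the set, and of all genes tested 1102. GTTAAT, a part of the site of the liver factor HNF1, stood in 7 of 21 (33.3%) of the higher genes, 4 of 44 (9.09%) of the lower genes, 90 of 1102 (8.17%) of the tested genes and 1946 of 27025 (7.20%) of all promoters. TTGCNNAA, a C/EBP motif, stood in 7 of 21 (33.3%), 6 of 44 (13.6%), 129 of 1102 (11.7%) and 2906 of 27025 (10.8%) of the same sets. TCAAAG, a core motif of the TCF/LEF factors that act downstream of Wnt, stood in 4 of 21 (19.05%), 7 of 44 (15.9%), 156 of 1102 (14.2%) and 4372 of 27025 (16.2%). CCAAT was found in 10 of 21 (47.6%), 28 of 44 (63.6%), 475 of 1102 (43.1%) and 10248 of 27025 (37.9%), and TATAAA in 3 of 21 (14.3%), 10 of 44 (22.7%), 129 of 1102 (11.7%) and 3827 of 27025 (14.2%). CAAAGTCCA, an HNF4A motif, was in 0 of the called promoters of either direction, in 11 of 1102 (0.998%) of the tested genes and in 129 of 27025 (0.477%) of all. A match is a description of letters and not a site of binding.

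The promoters of Alb, Fgb and Serpina1d, secreted plasma proteins that were higher without overlap, are shown with the GTTAAT match in capitals (ATTAAC where it lies on the other strand).
Alb, chr5:90460620-90460919, plus strand: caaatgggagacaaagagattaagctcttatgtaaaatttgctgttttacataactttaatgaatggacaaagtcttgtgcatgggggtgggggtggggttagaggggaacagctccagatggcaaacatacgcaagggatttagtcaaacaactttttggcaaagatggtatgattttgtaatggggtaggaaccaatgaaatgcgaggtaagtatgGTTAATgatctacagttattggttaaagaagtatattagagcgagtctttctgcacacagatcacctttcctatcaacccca
Fgb, chr3:83049814-83050113, minus strand: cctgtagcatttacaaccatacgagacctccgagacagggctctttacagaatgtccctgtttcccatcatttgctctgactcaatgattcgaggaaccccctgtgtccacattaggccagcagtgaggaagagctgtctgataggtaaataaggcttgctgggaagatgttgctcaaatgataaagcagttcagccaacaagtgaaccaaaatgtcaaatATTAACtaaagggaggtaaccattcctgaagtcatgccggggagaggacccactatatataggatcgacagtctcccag
Serpina1d, chr12:103773584-103773883, minus strand: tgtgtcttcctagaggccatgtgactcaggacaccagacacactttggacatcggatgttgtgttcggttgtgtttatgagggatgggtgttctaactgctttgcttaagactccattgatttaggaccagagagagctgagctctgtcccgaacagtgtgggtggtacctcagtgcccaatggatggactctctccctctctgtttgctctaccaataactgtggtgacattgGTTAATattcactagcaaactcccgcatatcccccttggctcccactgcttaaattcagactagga
Serpina1d had 2927, 3686, 3681 and 3635 CPM in mt-high cells, against 1715, 1748, 2793 and 2108 CPM in mt-low cells, and each of the 4 values in mt-high cells lay above each of the 4 in mt-low cells, as for Alb and Fgb.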

How the data were processed

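Per the labels, hepatocytes of 5 mice were taken through Drop-seq and Illumina sequencing, and each library was read as 1 mouse from its title. STAR 2.6.0a and the build mm10 are named in the submitters' processing notes; the sources used here say nothing of cell filters, gene annotation, strand, doublets or shared reads. The deposited table holds, as its values show, the natural log (ln) of 1 plus the UMIs per 10000 of each of 454 cells. All values above 0 (100%) were whole multiples of the step of their cell within 0.001, so UMIs were recovered, but no count model was run on a log unit. A second, smoothed table was not used.

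The members and all gene lists were chosen with earlier results of these data known. UMIs were summed per mouse and group of cells. The sums entered limma voom (limma 3.58.1; R 4.3.3) with a term for mouse as block, since the mt-high and mt-low cells of a mouse come from 1 library. Benjamini-Hochberg adjusted p under 0.05 over all genes was the threshold. Genes were kept with at least the CPM that 10 UMIs give at the median sum, in 4 or more of the 8 sums, and 15 UMIs in all. Values per mouse were tested by exact sign-flip permutation (SciPy 1.17.1). The sign-flip p-values rest on the differences of these 4 mice alone. They reach 0.13, the smallest possible, whenever all 4 mice share a sign, whatever the spread between them. Those of limma voom rest also on a variance shared in part across genes and on weights set by the counts. They are therefore not a measure of the agreement of 4 mice for 1 gene alone. Floors are the level of 3 UMIs, and cover counting error only. No doublet caller was run; leaving out the 5% of cells with most UMIs was an alternative. The fits were checked on simulated sums.

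Named were, in each direction, the 12 called genes with the same sign in 4 mice and the smallest p, 5 genes of the interaction, and from each list up to 3 called members or, with none, 2 of highest CPM; other names were chosen after their values were seen, and some genes are not reported here. Coordinates and transcripts are those of GENCODE vM21. Alternatives covered scaling, filters, the size of the groups, depth, the ranking measure, the model and each mouse left out.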

Additional observations from a re-analysis of the deposited data

Results flagged for a closer look

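HFD mouse 3, the smallest of the ranked libraries with 8 mt-high and 8 mt-low cells, stood apart from the other 3 mice in 3 of 9 measures taken per mouse. The gap between its value and the nearest other mouse, divided by the range of the 4 mice, exceeded Dixon's 95% critical value for 4 values (ratios of 0.961, 0.886 and 0.899, in the order that follows), which chance alone passes in about 1 of 20 groups. Its log2 ratio of median UMIs per cell, mt-high over mt-low, was −0.67, while the other mice lay between 0.37 and 0.41. Its log2 ratio of median genes per cell was −0.57, with the others between 0.13 and 0.22. Its log2 ratio of the summed cytosolic ribosomal protein genes was −1.14, with the others between −0.41 and −0.32.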

How the results depend on the processing

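The comparison of mt-high with mt-low cells called 85 genes. It called 48 with trimmed-mean scaling, 27 with each mouse split at its median, 28 with cells thinned to equal UMIs (643 genes testable), 20 with limma-trend, 30 in HFD mice alone, 25 in LFD mice alone, 8 when cells were ranked by all mitochondrial RNA, 2 by ribosomal RNA alone, and 0 within lobule score ranges or from means over cells of the log values (164 at an unadjusted p under 0.05). With 1 mouse left out it called 24 to 150. Without the replicate block it called 7, since differences between mice then enter the error; the groups are paired by library. Calls were 45.1% higher genes when the total left out the 20 most abundant genes, and 32.9% with the full total. No called gene changed sign under the scalings, which moved the median of all genes to as much as 0.015. The pericentral median (−1.22) was −1.62 without the block, −1.67 with limma-trend, −0.81 split at the median, −0.70 with cell means, −1.75 in LFD mice, −0.25 ranked by all mitochondrial RNA, −0.12 within lobule ranges, 0.0064 by ribosomal RNA, and −1.60 to −1.18 with a mouse left out; its summed level (−0.84) was −0.54 split at the median. The periportal median (0.53) was 0.63 with trimmed-mean scaling, 0.62 without the abundant genes, 0.29 split at the median, 0.43 within UMI ranges or thinned, 0.12 by all mitochondrial RNA or within lobule ranges and −0.017 by ribosomal RNA; its summed level (0.59) was 0.39 within UMI ranges, 0.44 thinned and 0.34 split at the median. The nuclear respiratory median (−0.053) was 0.061 with trimmed-mean scaling and −0.17 by all mitochondrial RNA, and the cytosolic ribosomal median (−0.43) was −0.094 by ribosomal RNA. The interaction called 0 genes, also without the block, and 4 by all mitochondrial RNA. In that ranking, where ribosomal RNA holds most UMIs, Mup3 (−0.10), Cyp1a2 (0.26), Slco1b2 (0.014), Atp5e (0.053), Oat (0.33), Slc25a5 (−0.46), Sod1 (0.30) and Fbp1 (−0.035) changed sign, as did Cyp2e1 (0.085), Serpina1e (−0.029) and Aldh3a2 (0.13) within lobule ranges; the cause was not tested. HFD mouse 3, with 8 cells per group, limits each per-mouse statement, and rankings by lobule range, single RNAs and diet were added after seeing the data.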

Other observations

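Gene groups not described above had few or no calls, where 5.96% of all genes tested were called. Of 7 immediate early and heat shock genes tested 0 were called, with Jun at 0.32, adjusted p = 0.589 and the constitutive chaperone Hspa8 at 0.14, adjusted p = 0.832. Of 7 cytoskeletal and adhesion genes 0 were called, with Actb, cytoplasmic actin, at −0.51, adjusted p = 0.0605 and the keratin Krt18 at −0.14, adjusted p = 0.819. Both tested genes of the integrated stress response lay below 0, and Atf5, a transcription factor that is known from other cells to respond to mitochondrial stress, was called lower (−1.26, adjusted p = 0.00437). Atf5 had 171, 0, 54.03 and 64.1 CPM in mt-high cells, against 395, 149.9, 165 and 90.5 CPM in mt-low cells. These were 36, 0, 8 and 7 UMIs in mt-high cells and 71, 3, 20 and 7 UMIs in mt-low cells. LFD mouse 2 thus had the same count in both groups, and HFD mouse 3 had too few UMIs to show a difference.

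The 5 cells of HFD mouse 1 were not ranked. Mitochondrial mRNA made up 1.68% of their UMIs, with a lowest cell at 0.394%, a median of 1.94% and a highest cell at 4.65%.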
